A study of Homo sapiens with 3 samples.

Results

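The small protein modifier SUMO is joined to lysines of other proteins, and 8 genes of its cycle and of transport into the nucleus were followed here in glioblastoma cells. They are SUMO2 and SUMO3, the modifiers themselves, SAE1 and UBA2, SENP1, PIAS3, RANBP2 and KPNB1. The genes were picked by name, because the cells compared differ in whether the IGF1 receptor reaches the nucleus. Earlier results of these data were known when the genes were picked. All 8 were among the 25006 genes named on the array. Together they had 14 probes, and the scanner marked each of these as well above background, for either dye, on each of the 3 arrays.

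The cells were clones of U-87MG, an established human glioblastoma line, each stably transfected and then grown from 1 clone. U87WT 5 carries GFP-IGF1R, the receptor fused to a fluorescent protein, and is labelled nuclear for it. U87Mut 5 carries GFP-IGF1R1025x-1100x-1120x, in which the lysines at positions 1025, 1100 and 1120, acceptors of SUMO, are arginines, and is labelled non-nuclear. The labels give the same localization for all conditions, and where the receptor lay in the cultures on the arrays is not known from the files. Both were kept 24 h in serum-free medium, 24 h with 50 nM IGF1, or with 50 nM IGF1 and 0.5 µM OSI906, an inhibitor of the receptor's kinase (a further label gives another dose for OSI906). Each condition was hybridized once, on 1 two-color array, with U87WT in Cy5 and U87Mut in Cy3, and dyes were not swapped. A difference between the clones and a difference between the dyes therefore cannot be told apart, and neither can an effect of the receptor and a difference between 2 single clones. No parental U87 array was used here.

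As background, SUMO is activated by a dimer of SAE1 and UBA2 and then joined to its target, often with the help of a ligase such as PIAS3. SENP1, a protease, trims SUMO precursors and takes SUMO off its targets again. RANBP2 sits on the cytoplasmic face of the nuclear pore, holds SUMO-modified RANGAP1 and has ligase activity of its own, and KPNB1, importin beta 1, carries cargo through the pore and lets it go when Ran-GTP binds.

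Differences are given as log2 ratios of U87WT over U87Mut, so that negative values mark a lower level in U87WT, and a gene was counted as past the limit beyond 0.5 in size. Both subunits of the activating enzyme were lower in U87WT. SAE1 was lower by a mean of 0.58 and UBA2 by 0.43. The SENP1 probes and SUMO3 lay below 0 on every array, with means of -0.33 and -0.34 for SENP1 and -0.21 for SUMO3. With median centring in place of loess, however, SENP1 and SUMO3 were at 0.21 and 0.24 on the IGF1 array. SUMO2, PIAS3, RANBP2 and KPNB1 had mean ratios near 0 or probes that disagreed. No gene of the 8 moved beyond 0.5 within either clone when IGF1 or OSI906 was added. Of all probes well above background, 2.10% to 6.54% did, so that 0 of 8 lies near that share.

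The promoters of UBA2 and SENP1, both lower in U87WT by each of their probes, are shown with that of RANBP2, whose brighter probe had a mean ratio of -0.048. The sequences are from RefSeq (GRCh38.p14), 250 bases before to 50 after a start site, and capitals mark the motifs found. SENP1 has 3 annotated starts, and the most upstream is given.
UBA2 (chr19:34428131-34428430, plus strand): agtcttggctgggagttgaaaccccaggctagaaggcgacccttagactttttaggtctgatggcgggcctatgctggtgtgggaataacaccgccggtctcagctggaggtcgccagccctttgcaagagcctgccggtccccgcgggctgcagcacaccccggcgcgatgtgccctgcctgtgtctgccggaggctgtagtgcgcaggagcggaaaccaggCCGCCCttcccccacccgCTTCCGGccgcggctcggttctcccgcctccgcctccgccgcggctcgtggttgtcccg
SENP1 (chr12:48106030-48106329, minus strand): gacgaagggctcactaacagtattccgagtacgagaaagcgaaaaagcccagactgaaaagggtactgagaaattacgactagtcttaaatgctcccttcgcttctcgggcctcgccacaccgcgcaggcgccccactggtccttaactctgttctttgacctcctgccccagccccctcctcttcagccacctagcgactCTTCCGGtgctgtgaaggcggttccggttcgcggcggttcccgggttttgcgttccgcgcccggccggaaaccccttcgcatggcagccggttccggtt
RANBP2 (chr2:108719232-108719531, plus strand): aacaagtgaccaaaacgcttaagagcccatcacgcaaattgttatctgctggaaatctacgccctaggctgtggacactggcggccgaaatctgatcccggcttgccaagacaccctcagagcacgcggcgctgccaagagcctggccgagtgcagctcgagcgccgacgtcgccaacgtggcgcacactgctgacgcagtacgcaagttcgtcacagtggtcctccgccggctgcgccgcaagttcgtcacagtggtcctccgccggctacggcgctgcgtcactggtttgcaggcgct

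On both strands, 8 motifs were searched: the GC box GGGCGG, the CCAAT box CCAAT, the ETS core CCGGAAG, the E2F cores TTTCCCGC and TTTGGCGC, the NRF1 motif GCGCATGC, the YY1 core AAGATGGC and the CRE TGACGTCA. The UBA2 window held a GC box at -27 and an ETS core at -9 from the start, both on the minus strand. The SENP1 window held an ETS core at -49, which lies at -136 from the second start. The window of the remaining, most downstream SENP1 start held 2 GC boxes and no ETS core. No motif was found in the RANBP2 window. The ETS core occurs in 10.3% of 35116 promoter windows of the same length and the GC box in 45.0%, so that neither is rare. The windows of SUMO2, SUMO3 and PIAS3 held GC boxes without an ETS core. That of SUMO2 also held a CCAAT box at -73, a motif found in 34.6% of windows. A match describes letters and not binding. KPNB1 and SAE1 have no entry in the promoter table.

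SAE1 is measured by 1 probe. Its log2 ratio was -0.40 in serum-free medium, -0.70 with IGF1 and -0.64 with IGF1 and OSI906. U87WT was lower on all 3 arrays, and past the limit on the IGF1 and the OSI906 array. Its log2 level in U87WT was 12.34, 12.13 and 12.14 in that order, against 12.74, 12.83 and 12.78 in U87Mut. The lowest level of U87Mut was thus above the highest of U87WT. Over the 3 arrays the mean ratio was -0.58 ± 0.068 (moderated SE, n = 3 arrays, limma, Benjamini-Hochberg adjusted p = 0.014), or 1.49 times more in U87Mut. Each SE over the arrays, here and below, is limma's moderated error, which also draws on the spread of other probes. It can be smaller than the SE of the 3 values alone. Of the probes well above background, 2.26% had a lower mean than SAE1. The call was lost without the OSI906 array (ratio -0.55, limma adjusted p = 0.11), with normexp fitted on all spots (0.064), with the scanner software's ratio (0.15) and with median centring in place of loess (0.45). Over 11 alternatives its adjusted p ranged from 0.0026 to 0.45, and the mean stayed below 0 in each.

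UBA2, the subunit that holds the catalytic cysteine, had 2 probes. The brighter gave log2 ratios of -0.29, -0.46 and -0.55 in serum-free medium, IGF1 and IGF1 with OSI906, and the dimmer gave -0.44, -0.29 and -0.84. All 6 values lay below 0, and both probes were past the limit on the OSI906 array alone. The log2 level of the brighter probe was 10.20, 10.22 and 10.19 in U87WT and 10.49, 10.69 and 10.74 in U87Mut. Its level stayed within a narrow range in U87WT and differed by 0.25 between serum-free medium and IGF1 with OSI906 in U87Mut. The mean ratio was -0.43 ± 0.060 (SE, n = 3 arrays; limma adjusted p = 0.020) for the brighter and -0.52 ± 0.11 (limma adjusted p = 0.059) for the dimmer probe. Of the pair, the brighter passed the test, and without the OSI906 array its ratio was -0.38 with a limma adjusted p of 0.11. Its adjusted p ranged from 0.0083 to 0.59 over 11 alternatives, and 6 of them called it.

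SENP1 also had 2 probes. The brighter gave log2 ratios of -0.31, -0.13 and -0.54 in serum-free medium, IGF1 and IGF1 with OSI906, and the dimmer -0.24, -0.27 and -0.52. The probes differed most on the IGF1 array and were past the limit on the OSI906 array. The mean ratio was -0.33 ± 0.083 (SE, n = 3 arrays; limma adjusted p = 0.098) and -0.34 ± 0.065 (limma adjusted p = 0.046). The dimmer probe passed the test and the brighter did not, although the means nearly coincided. The brighter probe's log2 level fell from 8.74 with IGF1 to 8.45 with OSI906 added in U87WT, while U87Mut went from 8.86 to 8.98. Without the OSI906 array the dimmer probe had a ratio of -0.26 (limma adjusted p = 0.11), and without the serum-free array -0.39 (limma adjusted p = 0.11). Its adjusted p ranged from 0.020 to 0.65, and 5 of 11 alternatives called it.

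**Figure D1:**
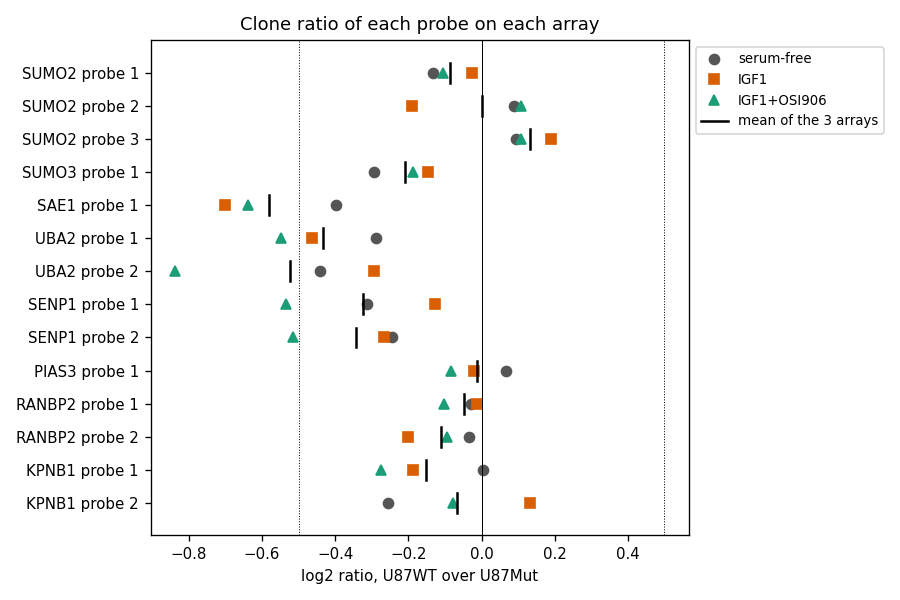
Log2 ratio of U87WT over U87Mut for each of the 14 probes of the 8 genes (rows; probes of a gene from brighter to dimmer) on the 3 arrays, with the mean as a black bar and dotted lines at 0.5 and -0.5. SAE1, UBA2 and SENP1 lie left of 0 on every array, and no probe lies right of 0.5.

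SUMO3, a modifier that can form chains, was printed 10 times on the array, so that the error of a spot can be seen. The ratio was -0.29 ± 0.070 in serum-free medium, -0.15 ± 0.061 with IGF1 and -0.19 ± 0.074 with IGF1 and OSI906 (SD, n = 10 spots of 1 probe). All 30 spots were below 0, with values from -0.39 to -0.015. The spots repeat a hybridization and not a culture. For all 274 probes with at least 10 spots the median SD of a ratio was 0.045, 0.050 and 0.048 on the 3 arrays, and the highest SD of such a probe was 0.12, 0.11 and 0.16. These are errors of a ratio on 1 array, and the difference between 2 arrays has a larger one. The mean of SUMO3 was -0.21 ± 0.043 (SE, n = 3 arrays; limma adjusted p = 0.058) and did not pass the test.

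**Figure D2:**
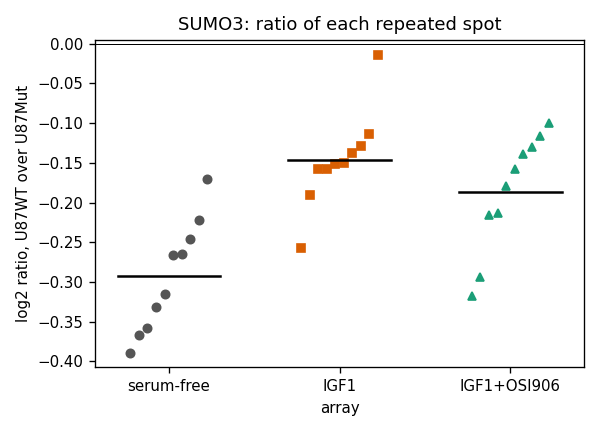
Log2 ratio of U87WT over U87Mut for the 10 SUMO3 spots (points, sorted by value) on each of the 3 arrays, with their mean as a bar. Every spot lies below 0, from -0.39 to -0.015.

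SUMO2, which is nearly identical to SUMO3 in its mature form, had 3 probes that did not share a direction. The brightest gave log2 ratios of -0.13, -0.02 and -0.11 in serum-free medium, IGF1 and IGF1 with OSI906, the second 0.09, -0.19 and 0.11, and the third 0.09, 0.19 and 0.11. No value passed 0.5, although with median centring the brightest was at 0.61 on the IGF1 array, and no mean passed the test (limma adjusted p = 0.30, 0.99 and 0.13). SUMO2 has processed pseudogenes, and since probe sequences were not used here, what share of the signal comes from copies is unknown.

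PIAS3, a ligase, had log2 ratios of 0.07, -0.02 and -0.08 in serum-free medium, IGF1 and IGF1 with OSI906, with a mean of -0.013 ± 0.043 (SE, n = 3 arrays; limma adjusted p = 0.91). These values lie on both sides of 0, and with median centring PIAS3 was at 0.43 on the IGF1 array. RANBP2 had 2 probes. The brighter gave -0.03, -0.01 and -0.10, and the dimmer -0.03, -0.20 and -0.10. All 6 values were below 0 (with median centring the brighter was at 0.26 on the IGF1 array), none reached 0.5 and the means of -0.048 ± 0.037 and -0.11 ± 0.046 did not pass the test (limma adjusted p = 0.56 and 0.27). With the scanner software's ratio the mean of the dimmer probe was -0.41 (limma adjusted p = 0.20). The brighter was then at -0.21 with IGF1 and at 0.07 in serum-free medium. RANBP2 is close in sequence to the RGPD gene family, so that its signal is uncertain in the same way.

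KPNB1 had 2 probes that disagreed. The brighter gave log2 ratios of 0.0046, -0.19 and -0.28 in serum-free medium, IGF1 and IGF1 with OSI906, and the dimmer -0.26, 0.13 and -0.08. The probe means were -0.15 ± 0.063 (SE, n = 3 arrays; limma adjusted p = 0.26) and -0.066 ± 0.080 (limma adjusted p = 0.72). The brighter was highest in serum-free medium, whereas the dimmer was lowest there and highest with IGF1. With median centring the brighter was at 0.41 on the IGF1 array, and the probe means were 0.065 and 0.085.

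Counted by the brightest probe of each gene, 0 of the 8 genes were past the limit in serum-free medium, 1 with IGF1 (SAE1) and 3 with IGF1 and OSI906 (SAE1, UBA2 and SENP1), all lower in U87WT. Of all probes well above background, 4.70% were below -0.5 and 4.76% above 0.5 in serum-free medium, 3.65% and 5.25% with IGF1, and 4.20% and 4.59% with IGF1 and OSI906. By probe, 5 of 14 were below -0.5 on the OSI906 array. The median of the 8 genes was -0.21, -0.14 and -0.23 on the 3 arrays, against -0.011, 0.0050 and -0.0036 over all probes well above background. By the brightest probe, the sign was negative on all 3 arrays for 6 of the 8 genes, and by all probes for 9 of 14, compared with 27.3% of all probes well above background. With median centring in place of loess the median over all probes well above background moved to -0.13 in serum-free medium, 0.20 with IGF1 and 0.053 with OSI906, and 2 of the 8 genes, SAE1 and UBA2, were negative on all 3 arrays. With normexp fitted on all spots, the ratio on the IGF1 array was -0.74 for UBA2, -0.43 for SUMO3, -0.31 for SENP1 and -0.35 for PIAS3, and that of SAE1 was -0.69. With median centring the ratio on that array was -0.11 for SAE1 and -0.017 for UBA2, so that SAE1 was no longer past the limit there.

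Across the 3 arrays, limma called 3 of the 14 probes at an adjusted p of 5% (SAE1, the brighter UBA2 and the dimmer SENP1 probe), all lower in U87WT. An unadjusted p under 0.05 was reached by 7 of the 14, 6 lower and 1, the third SUMO2 probe, higher in U87WT, against 40.0% of all probes well above background. Of 57318 probes tested, 4.36% were called lower and 4.49% higher in U87WT, and of those well above background, as all 14 are, 9.06% and 9.03%. The arrays of this test are different conditions and 1 culture each, so that its error holds the response to treatment. Its p-values set the mean ratio against that error, which also draws on the spread of other probes. No spread among repeated cultures of 1 condition enters them. The cells are measured as whole cultures, in which fewer cells with a transcript and less of it per cell cannot be told apart.

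Next, each clone was followed between conditions by its own channel. When IGF1 was added, the log2 level of SAE1 changed by -0.21 in U87WT and by 0.09 in U87Mut, and that of UBA2 by 0.02 and 0.20. PIAS3 had the lowest value in U87WT, -0.24, and changed by -0.15 in U87Mut. KPNB1 changed by -0.18 and 0.01 on its brighter probe and by 0.11 and -0.27 on its dimmer one. None of the 8 genes passed 0.5 in either clone, compared with 4.00% of probes in U87WT and 2.10% in U87Mut. The median of the 8 genes was -0.0030 in U87WT and -0.017 in U87Mut, against 0.0085 and -0.014 over all probes well above background. With 1 array for each condition these are values without a test.

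When OSI906 was added to IGF1, the largest changes among the 14 probes were those of the dimmer UBA2 probe in U87WT, -0.41, where U87Mut changed by 0.14, and of the brighter SENP1 probe, -0.29 in U87WT and 0.12 in U87Mut. The dimmer SENP1 probe changed by -0.18 and 0.07, and the brighter UBA2 probe by -0.03 and 0.05, so that the UBA2 probes did not move alike. SAE1 changed by 0.01 in U87WT and -0.05 in U87Mut. None of the 8 genes passed 0.5 in either clone, against 6.54% of probes in U87WT and 2.44% in U87Mut. The median of the 8 genes was -0.011 in U87WT and 0.082 in U87Mut, against -0.0044 and 0.013 over all probes. Both comparisons use the IGF1 array. IGF1R itself, the transfected gene, had ratios of 0.07, 0.23 and 0.09 (limma adjusted p = 0.20), and whether its probe reads the vector was not determined.

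**Figure D3:**
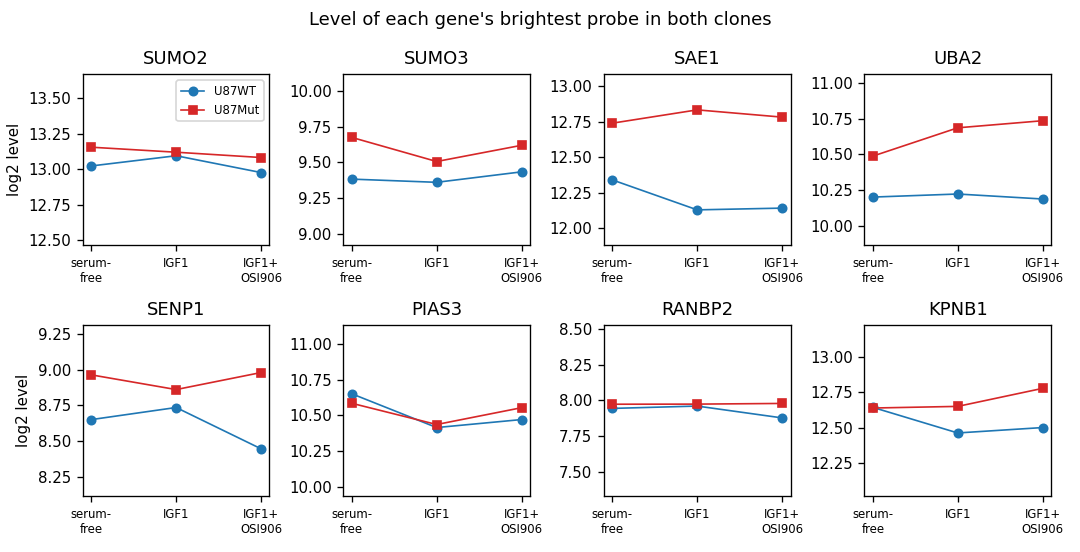
Log2 level of the brightest probe of each of the 8 genes in U87WT (blue circles) and U87Mut (red squares) under the 3 conditions. Every panel spans the same width in log2 units but starts at its own level, since levels of different probes cannot be compared. SAE1, UBA2, SENP1 and SUMO3 lie lower in U87WT under each condition, whereas PIAS3, RANBP2 and SUMO2 nearly overlap.

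Other genes of the pathways were counted on 3 lists, by their brightest probe. The shares called that are set beside these counts are over all probes well above background, and not over the brightest probe of each named gene. On the import and nucleoporin lists, 24 of 25 and 29 of 30 genes with a probe were well above background on every array. On the list of SUMO enzymes and proteases, 28 of 29 genes had a probe, and limma called 9 lower and 0 higher in U87WT, where 9.06% and 9.03% of all probes well above background were called. Aside from the 8 genes above, 21 remained, with 7 called lower, among them TRIM28, DESI1, PIAS4 and PIAS2. TRIM28, a corepressor with ligase activity, had ratios of -0.44, -0.50 and -0.46 (limma adjusted p = 0.0050). PIAS4 and PIAS2, ligases of the family of PIAS3, had means of -0.30 and -0.21. With normexp fitted on all spots 2 genes of the list were called lower, and with median centring or the scanner software's ratio 0, while the number of genes with a mean below 0 was 22 of 28 here and 23, 18 and 22 with these. The highest means on the list were RNF111, 0.26, ZNF451, 0.22, and NSMCE2, 0.20, none of which passed the test.

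Among import receptors and genes of the Ran cycle, 25 of 26 had a probe, 3 were called lower and 1 higher, beside 9.06% and 9.03% of all probes well above background. With normexp fitted on all spots 1 and 0 were called, and with median centring or the scanner software's ratio 0 in either direction. RANGAP1, the partner of RANBP2 at the pore, had ratios of -0.60, -0.50 and -0.35 (limma adjusted p = 0.014), and IPO4 and KPNA2, an importin alpha that binds KPNB1, had means of -0.37 and -0.34. TNPO2, a transportin, was higher, with a mean of 0.47, and KPNA1 and IPO13 had means of 0.32 and 0.18 that did not pass. RANBP1 had an outlier spot on the IGF1 array and was left out of the test. The median of the list was -0.051, -0.011 and -0.20 on the 3 arrays, against -0.011, 0.023 and -0.013 over all named genes with their brightest probe well above background.

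All 30 nucleoporins had a probe, with 12 called lower and 1 higher, beside the same 9.06% and 9.03% of all probes well above background. NUP205 and NDC1, of the pore's inner ring and membrane ring, were past the limit on every array, with means of -0.74 and -0.73, and NUP35 had a mean of -0.64. SEC13 was higher by 0.33, and RAE1 and NUP133, at 0.12 and 0.04, did not pass. RANBP2, itself a nucleoporin, was not called, whereas NUP153 and NUP214, on the nuclear and the cytoplasmic face of the pore, had means of -0.32 and -0.21 and were called lower. The list's median was -0.19, -0.22 and -0.29. With normexp fitted on all spots 6 of the 30 were called lower, and with median centring or the scanner software's ratio 0.

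**Figure D4:**
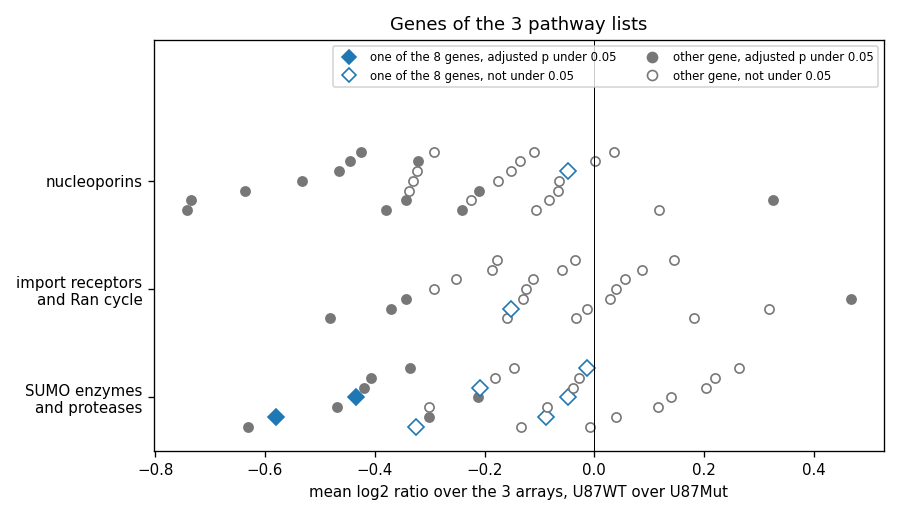
Mean log2 ratio over the 3 arrays of every gene on the 3 lists, by its brightest probe (vertical offsets only separate points). Filled symbols passed limma's test, diamonds are the 8 genes; most filled points lie left of 0, and SAE1 and UBA2 are the filled diamonds.

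Likeness of pattern was measured as the Euclidean distance between the 3 ratios of a gene and those of 80 candidates on the lists. SAE1 was nearest to NUP35 (distance 0.10), UBA2 to NUP188 (0.11), SENP1 to NUP98 (0.067), SUMO3 to AAAS (0.059), KPNB1 to GLE1 (0.054), PIAS3 to RANBP2 (0.098), and SUMO2 and RANBP2 to POM121 (0.084 and 0.079). These distances use 3 points from 3 arrays and describe the values alone.

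The identity of the cultures was checked by markers. All 4 listed for the cell line, VIM, CD44, FN1 and NES, were well above background on every array. Of 4 markers of other cell types, PECAM1 of endothelium was not well above background throughout, and PTPRC, EPCAM and RBFOX3 were. The mark thus did not tell both sets apart. Mean log2 levels were 6.21 for PTPRC, 6.84 for EPCAM and 9.04 for RBFOX3, and from 6.90 (NES) to 15.61 (VIM) for the line's markers. VIM had ratios of 1.15, 0.29 and 0.77 (limma adjusted p = 0.068) and FN1 of 0.68, -0.14 and 0.74. Of the other cell types' markers, EPCAM had ratios of 0.36, 0.53 and 0.20 (limma adjusted p = 0.046), PTPRC of 0.21, -0.01 and 0.03 and RBFOX3 of -0.31, -0.55 and 0.38. The part of these differences in the ratios of the 8 genes was not tested. On the IGF1 array 572 spots were marked as not uniform, against 384 and 5 on the serum-free and the OSI906 array, but 0 of the 23 spots of the 8 genes were. The highest Cy5 background of a spot was 66985 on the IGF1 array, against 373 and 45. Unmarked spots do not make the ratios there secure. Over the settings tried, SUMO3 ranged from -0.51 to 0.24 on that array and UBA2 from -0.80 to -0.017.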

How the data were processed

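Total RNA of each pair of cultures was hybridized to an Agilent SurePrint G3 array of human genes (version 3). The intensity values were deposited as scanner output, per the file headers by Feature Extraction 12.0.3.1, with marks for outlier spots and spots well above background, and with a log10 ratio of processed signals. The log2 ratios that the authors deposited were made with limma, with the kind of correction not named. Here, background was corrected by normexp (offset 50) fitted without spots marked as not uniform, followed by loess within and Aquantile between arrays in R 4.3.3 with limma 3.58.1. Control and outlier spots were left out of 62976, and 58201 probes remained, of which 34892 were named by RefSeq transcript. A gene is given by its brightest probe. Clone ratios over 3 arrays were tested with lmFit and eBayes, intercept only, with Benjamini-Hochberg adjustment over 57318 probes. On simulated arrays with 57318 probes, 47 of 50 probes set at a log2 ratio of -1 and 29 of 48 set at -0.5 were called. Their median estimates were -0.53 and -0.31, where -0.57 and -0.35 were calculated from the offset. Both are smaller in size than the values set, so that the ratios given here can understate a difference. Of probes set at 0.5 and 1, 22 of 49 and 50 of 50 were called, with median estimates of 0.33 and 0.76. Among those set at 0, 1 of 57121 was called. The noise between the simulated arrays was set by hand and held no response to treatment. These shares therefore do not give how often a difference is found on the real arrays. The members, lists and limits were chosen with earlier results of these data known. Named genes are the 8 genes, IGF1R, list genes past 0.5 on all arrays or among the 3 highest or lowest, and the nearest gene; others called on the lists were named after their values were seen, and some list genes are counted but not reported by name here. No saturated spot was found, and the number of arrays limits the precision.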

Additional observations from a re-analysis of the deposited data

How the results depend on the processing

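The mean ratios of SAE1, UBA2, SENP1 and SUMO3 stayed below 0 for each of their probes in all 11 alternatives run, but the calls did not hold in all. Against 3 probes called by limma, 0 were called with normexp fitted on all spots, 0 with the scanner software's log ratio, 0 with median centring in place of loess, 1 in the deposited table and 5 with an offset of 20. Of all probes, 2498 were called lower and 2573 higher here. They numbered 557 and 157 with normexp fitted on all spots, 606 and 179 in the deposited table, and 3046 and 3263 with an offset of 20. Leaving out each array in turn gave 0 to 5 of the 14 probes, with 0 without the OSI906 array, 2 without the serum-free array and 5 without the IGF1 array. Over all probes these fits called, in that order, 312 lower and 363 higher, 796 and 1106, and 3228 and 3056. With the scanner's log ratio and with median centring 0 of 57318 probes were called at all, although 10946 and 5085 had an unadjusted p under 0.05. Genes past the limit numbered 2 with IGF1 when normexp was fitted on all spots or the scanner's log ratio was used and 3 in the deposited table, against 1. Over probes well above background, the deposited values of the IGF1 array correlated at 0.65 with the ratios used here. The correlation was 0.994 for the serum-free and 0.989 for the OSI906 array. With median centring, 4 genes passed in serum-free medium and 1 with OSI906, all lower in U87WT, and 1 with IGF1, SUMO2 at 0.61, higher. With the limit at 0.5 SD of each array, 5 genes passed on each, as did 57.4%, 58.2% and 60% of all probes well above background. Probes of a gene were averaged in a further alternative without change of these counts. The count of genes past 0.5 within a clone stayed 0 under all 7 alternatives for both treatments. On the SUMO list 9 genes were called lower here and 3 in the deposited table, on the import list 3 and 1, and of the nucleoporins 12 and 7. Of all probes, 2498 and 606 were called lower. The cause of these changes was not tested. Each array holds both clones of 1 condition, so that the test over the 3 arrays is already paired by array.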
